A study of Mus musculus with 24 samples.

Results

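Integrated stress response genes were followed in mouse conventional CD4+ T cells at rest and after activation. The 10 members were chosen by symbol and are Eif2ak3, Eif2ak4, Atf4, Atf5, Ddit3, Asns, Chac1, Trib3, Sesn2 and Ppp1r15a. They are 10 of 55414 genes listed in the UMI count table, of which 25030 had at least 1 count, and all 10 were among the 10566 genes that passed the filter on low counts. The members were chosen for their known role in the pathway and not by a rule on their level, though with earlier results of these data known.

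The cells were splenic CD4+ CD25- T cells, called TE by the labels and Tconv by the study, from conplastic mice. In conplastic mice the nucleus is that of C57BL/6J and the mitochondrial DNA can differ, and here it was of the B6 haplotype (mtDNAB6, WT in the labels) or of the NZB haplotype (mtDNANZB). Resting cells (RES) and cells activated for 72 h with beads against CD3 and CD28 together with the cytokine IL-2 (ACT) gave 4 groups of 6 libraries. Per the methods the mice were young adults and mostly male, and whether the libraries of a group came from separate mice is not given in the sources used here. The p-values therefore measure the spread between libraries, which may in part be technical.

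The integrated stress response joins several alarms to 1 event, the phosphorylation of the translation initiation factor eIF2 on its alpha subunit. Each of its kinases answers a different stress: PERK (gene Eif2ak3) unfolded protein in the endoplasmic reticulum, GCN2 (Eif2ak4) uncharged tRNA, HRI (Eif2ak1) haem shortage and mitochondrial damage, and PKR (Eif2ak2) double-stranded RNA. General protein synthesis then slows while the mRNA of the transcription factor ATF4 is translated more, and ATF4 with its partners switches on genes for amino acid supply, redox balance and, through CHOP (Ddit3), cell death. GADD34 (Ppp1r15a) brings the phosphatase back to eIF2 and ends the response. T cells are known to use this pathway when amino acids run short. ATF4 is controlled largely at translation, so its mRNA level does not measure the protein.

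The element that ATF4 and C/EBP proteins bind together is given first because it is the sequence through which the pathway is known to reach its target genes. The letters TGATGNAAN were searched on both strands of RefSeq promoter windows (build GRCm38.p6), each from 250 bases before to 50 bases after a gene's start. They occurred in 1299 of 32851 windows, or 3.95%. Counted by gene, 1215 of 27025 genes, or 4.50%, had a match in at least 1 window, and 3 of the 10 members did. The matches of Asns, Chac1 and Trib3 follow on the strand of the gene, with the match in capitals.
Asns, chr6:7693214-7693242, minus strand: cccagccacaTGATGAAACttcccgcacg
Chac1, chr2:119351038-119351066, plus strand: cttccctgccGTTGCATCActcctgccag
Trib3, chr2:152344029-152344057, minus strand: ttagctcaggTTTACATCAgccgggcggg
The Asns match lay on the strand of the gene, from base -23 to base -15 before the start. Chac1 carried it on the opposite strand, from base -194 to base -186. The Trib3 match, also on the opposite strand, lay behind the start, from base 14 to base 22. A match of letters is no proof of binding, and the other 7 members, the known targets Ddit3, Sesn2 and Ppp1r15a among them, had none in this window. As the values below show, Trib3 rose on activation in both haplotypes, whereas Asns passed the test as lower in mtDNAB6 only and Chac1 in mtDNANZB only.

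Depth ranged from 641467 to 6449395 UMIs per library in 23 libraries, and the other one, resting mtDNANZB replicate 2, held 51409 UMIs. There 1 count equals 16.7 CPM (UMIs scaled to a common library total) and 3 counts equal 50.2 CPM, so that the 6 members at 0 in it, Eif2ak3, Eif2ak4, Atf5, Chac1, Trib3 and Sesn2, may have had any level up to about 50.2 CPM (counting error only). All levels below are CPM of the TMM-scaled library size. Summed markers of T cell identity lay between 3509 and 6714 CPM in all libraries. Markers of other cells moved both ways on activation. In both haplotypes 8 of 8 granulocyte, 6 of 6 myeloid and 7 of 8 erythroid markers and the 1 NK cell marker tested fell, and 2 of 2 CD8 T cell markers rose, from median sums of 68.6 to 277 CPM in mtDNAB6 and of 51.8 to 164 CPM in mtDNANZB. Of 2 platelet markers tested 2 rose in mtDNAB6 and 1 in mtDNANZB. Of 3 Treg markers 1 fell in mtDNAB6 and 1 rose in mtDNANZB. Of 6 B cell markers 1 fell in each haplotype, and their sum lay between 5692 and 17378 CPM at rest and between 1093 and 6060 CPM after activation. Of 15 genes known to answer tissue handling and early signals, 15 fell in both haplotypes, with sums of 9616 to 49916 CPM at rest and 1008 to 1607 CPM after activation. What part these other cells and handling have in the activation differences below was not tested. In a bulk library fewer cells of a type and less RNA per cell cannot be told apart.

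**Figure D1:**
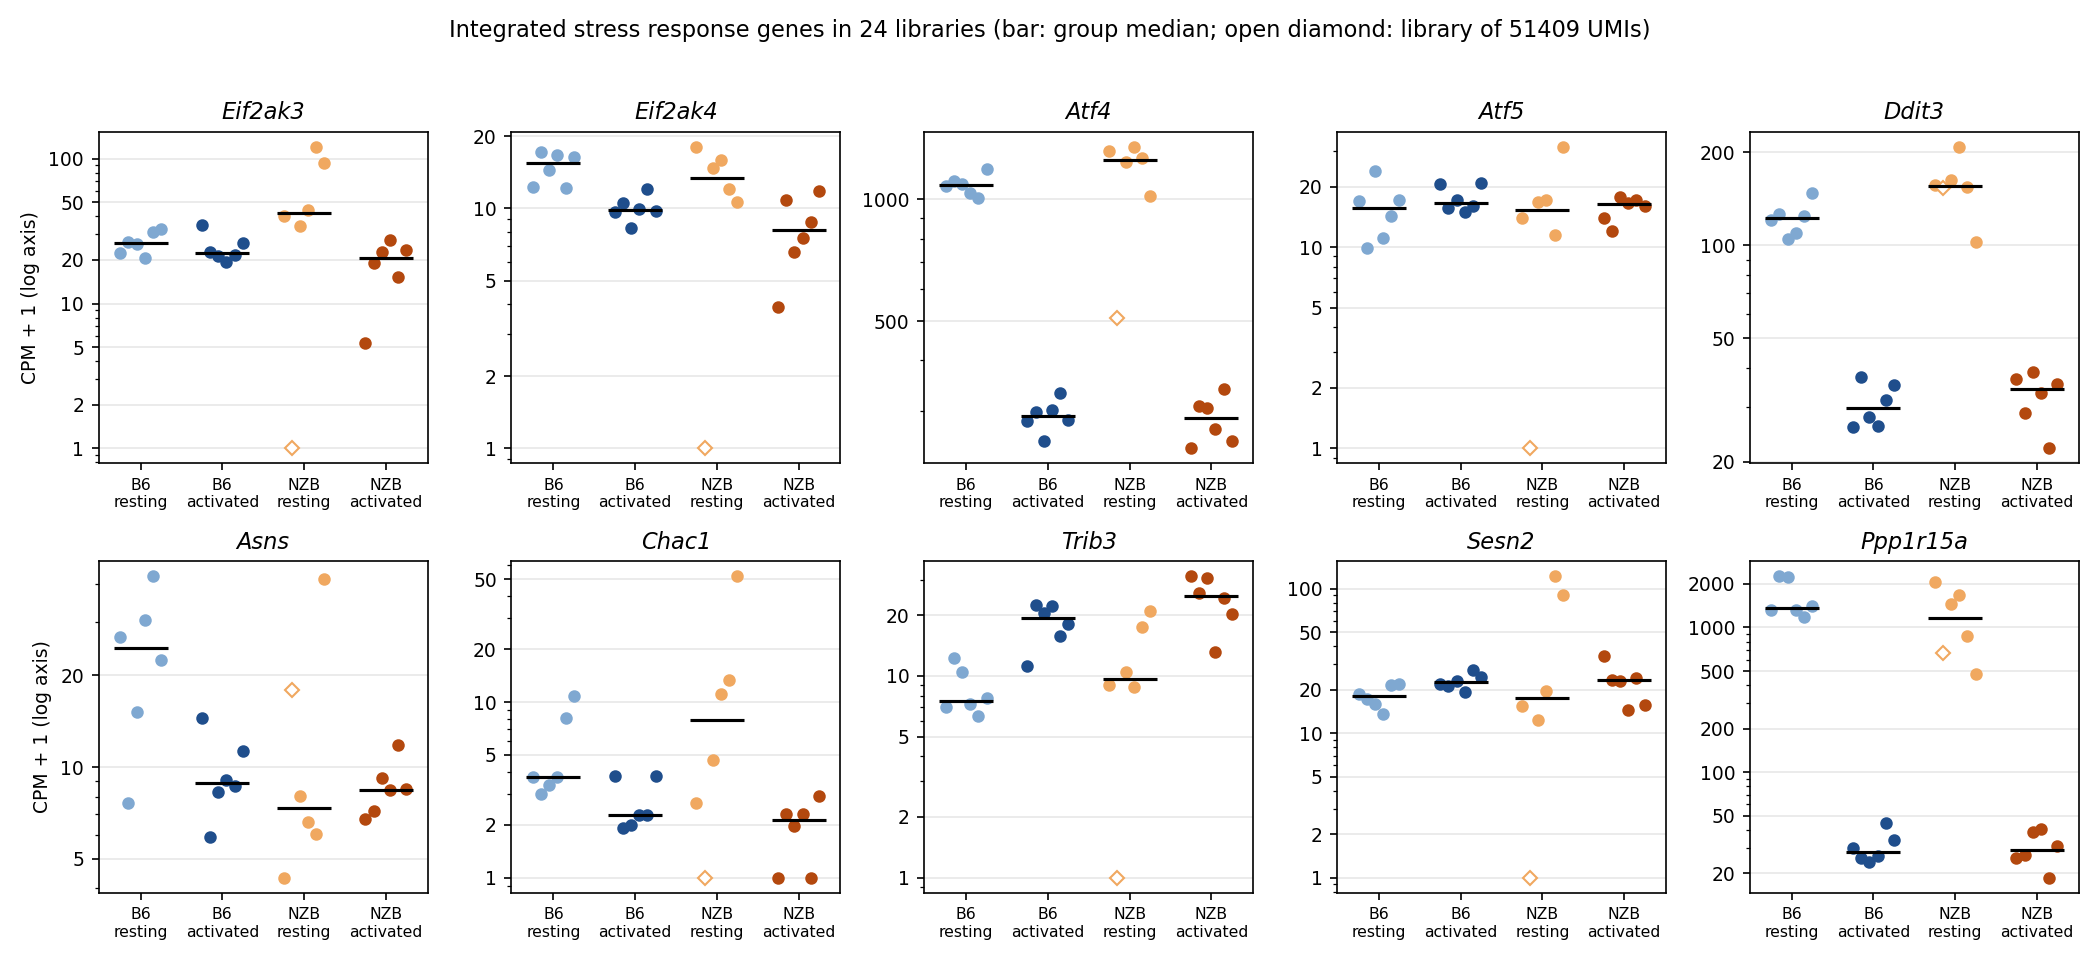
Level of each of the 10 genes in every library, as CPM + 1 on a log axis, with 6 points per group and a bar at the group median. Atf4, Ddit3 and Ppp1r15a lie lower in all activated libraries of both haplotypes, Trib3 has higher medians after activation, and replicates 5 and 6 of resting mtDNANZB stand above the others in Eif2ak3 and Sesn2.

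Activation was the larger of the contrasts for these genes. In mtDNAB6 cells 5 of the 10 members fell and 1 rose (edgeR quasi-likelihood test, adjusted p of at most 0.05 over 10566 genes). Of all genes tested 46.9% were called, 24.5% as lower and 22.4% as higher, and the median log2 difference was -0.026. In mtDNANZB cells 7 of 10 fell and 1 rose, where 53.5% of all genes were called, 28.4% as lower and 25.2% as higher, with a median of -0.058. Atf4, Ddit3, Eif2ak4 and Ppp1r15a fell and Trib3 rose in both haplotypes. The resting and activated values did not overlap, with the activated ones lower, in 4 members in mtDNAB6 (16.4% of all genes) and in 3 members in mtDNANZB (6.95%). In no member were all activated values higher (15.4% and 11.9% of all genes).

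**Figure D2:**
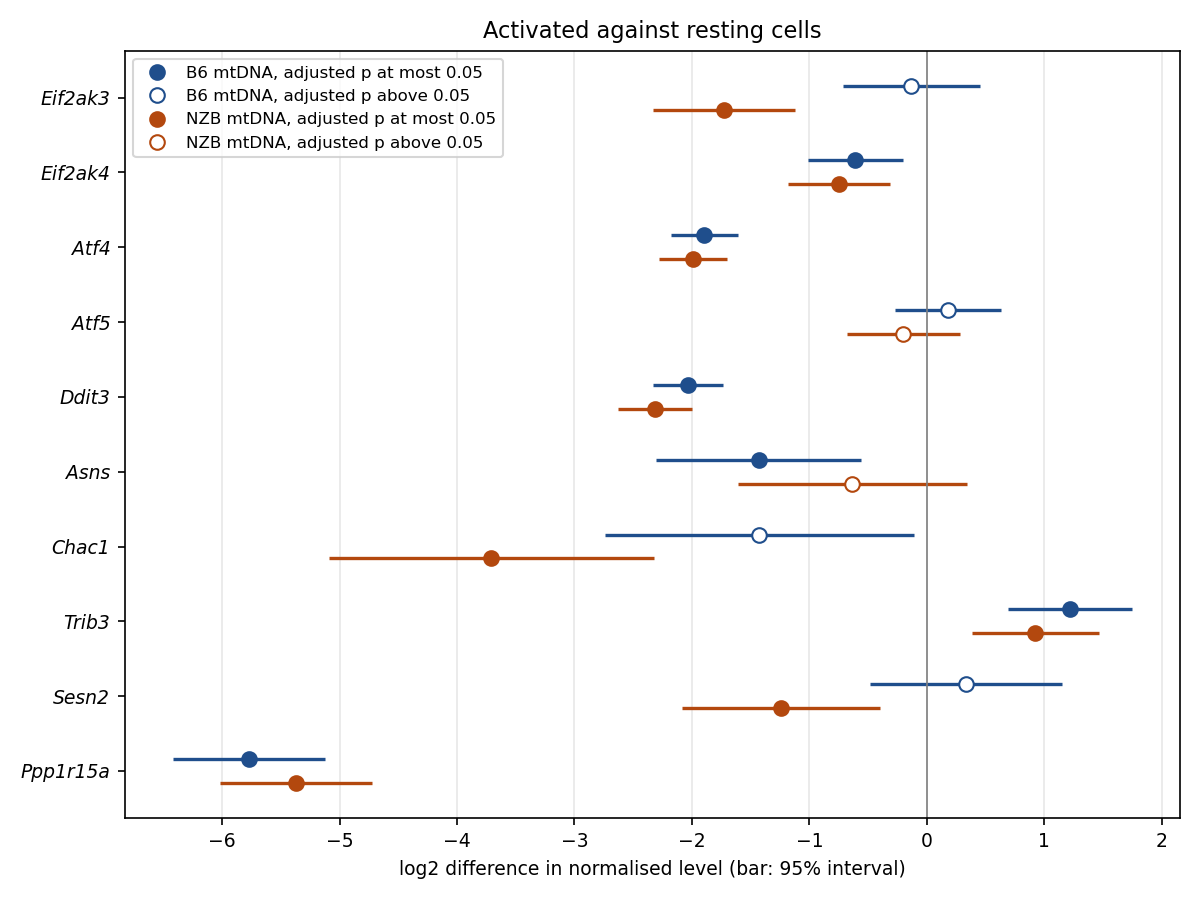
Log2 difference of activated against resting cells (x axis) for each member (y axis), in mtDNAB6 and mtDNANZB, with the 95% interval as a bar and filled points where the adjusted p was at most 0.05. Ppp1r15a lies farthest to the left in both haplotypes, and Trib3 has the only filled points to the right of 0.

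Among the kinases, Eif2ak4 (GCN2; chr2:118218950-118305868 in GRCm39, plus strand) moved little but in both haplotypes. In mtDNAB6 cells it ranged from 11.2 to 16.2 CPM at rest (median 14.5) and from 7.27 to 11.0 CPM after activation (median 8.81). Resting and activated mtDNAB6 libraries did not overlap, and the log2 difference was -0.61 ± 0.21 (SE, adjusted p = 0.0176). In mtDNANZB cells the resting range was 0 to 17.0 CPM (median 12.4) and the activated range 2.88 to 10.9 CPM (median 7.14), so that the groups overlapped. There the log2 difference was -0.75 ± 0.22 (adjusted p = 0.0062). The 3′ end of Eif2ak4 overlaps that of Srp14 on the other strand, a gene with 15524 UMIs in all libraries against 828 of Eif2ak4, and Srp14 differed by 0.034 (adjusted p = 0.836) and 0.34 (adjusted p = 0.0212) on the log2 scale in mtDNAB6 and mtDNANZB. The call in mtDNAB6 was lost without a filter on low counts (adjusted p = 0.0546) and, with the set by reads per UMI (given further on) as a term, in the 21 libraries left without resting mtDNANZB replicates 2 and 6 and activated mtDNANZB replicate 6 (adjusted p = 0.0740).

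Eif2ak3 (PERK; chr6:70821461-70882235, plus strand) held its level in mtDNAB6 libraries within their spread and fell in mtDNANZB. In mtDNAB6 it ranged from 19.6 to 31.97 CPM at rest (median 25.2) and from 18.4 to 34.1 CPM after activation (median 21.2), with a log2 difference of -0.13 ± 0.30 (adjusted p = 0.742). In mtDNANZB it ranged from 0 to 119.6 CPM at rest (median 41.1) and from 4.31 to 26.6 CPM after activation (median 19.8). Apart from the shallow replicate 2, every resting mtDNANZB library lay above every activated one, at 33.6 CPM or more. The log2 difference was -1.73 ± 0.31 (adjusted p = 4.6e-05), and without replicates 5 and 6 of resting mtDNANZB it was -0.92 (adjusted p = 0.0037). In the list of all 4 eIF2 kinases 1 rose and 1 fell in mtDNAB6 (22.4% and 24.5% of all genes). In mtDNANZB 1 rose and 2 fell (25.2% and 28.4% of all genes). The one that rose was Eif2ak2 (PKR), by 0.59 ± 0.17 (adjusted p = 0.0056) and 0.92 ± 0.19 (adjusted p = 0.000233) on the log2 scale.

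Of the transcription factors, Atf4 (chr15:80139372-80141745, plus strand) had high counts in every library. In mtDNAB6 it ranged from 1007 to 1187 CPM at rest (median 1083) and from 252 to 331 CPM after activation (median 291). In mtDNANZB the resting range was 508 to 1347 CPM (median 1251), where the lowest value was the 30 UMIs of replicate 2 and the next 1018 CPM, and the activated range 242 to 338 CPM (median 287). All activated libraries lay under all resting ones in both haplotypes. The log2 differences were -1.89 ± 0.15 (adjusted p = 1.4e-10) and -1.99 ± 0.15 (adjusted p = 7.0e-11), falls of 3.72-fold and 3.98-fold.

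Ddit3 (CHOP; chr10:127124268-127132163, plus strand), the bZIP factor that ATF4 induces under lasting stress, fell together with it. Its resting libraries ranged from 104 to 147 CPM (median 122) in mtDNAB6 and from 101 to 207 CPM (median 155) in mtDNANZB. After activation the ranges were 24.95 to 36.4 CPM (median 28.7) and 21.1 to 38.0 CPM (median 33.4), again without overlap. The log2 difference was -2.03 ± 0.15 (adjusted p = 1.1e-10) in mtDNAB6 and -2.31 ± 0.16 (adjusted p = 2.2e-11) in mtDNANZB. The 3′ end of Ddit3 overlaps Mars1 on the other strand, which had nearly as many UMIs (6041 against 6044) and differed by 0.23 (adjusted p = 0.163) and 0.57 (adjusted p = 0.0013) on the log2 scale. The symbol Ddit3 has a second identifier in the annotation, listed at 0 counts.

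Atf5 (chr7:44461680-44466082, minus strand), a factor translated under the same control as ATF4, did not pass the test. It ranged from 8.94 to 22.9 CPM at rest and from 14.0 to 19.8 CPM after activation in mtDNAB6. In mtDNANZB the ranges were 0 to 30.5 CPM and 11.1 to 16.7 CPM. The log2 differences were 0.18 (95% interval -0.27 to 0.63) and -0.20 (95% interval -0.68 to 0.28). The list of ATF4 partners and related bZIP factors, 13 genes with Atf4, Atf5 and Ddit3 among them, had 8 that fell and 2 that rose in each haplotype, with medians of -0.99 and -1.39. Among all genes 24.5% fell and 22.4% rose in mtDNAB6, and 28.4% fell and 25.2% rose in mtDNANZB. Atf3, which is also on the list of handling genes, differed by -5.53 and -5.04 on the log2 scale, and Batf, a factor of T cell differentiation, rose by 0.77 and 0.70.

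The metabolic targets split. Asns (chr6:7671667-7728461, minus strand), which makes asparagine, ranged from 6.62 to 41.3 CPM at rest (median 23.6) and from 4.90 to 13.5 CPM after activation (median 7.86) in mtDNAB6. The groups overlapped, since resting replicate 2 was at 6.62 CPM, and the log2 difference was -1.43 ± 0.44 (adjusted p = 0.0101). In mtDNANZB the resting libraries ranged from 3.34 to 40.6 CPM (median 6.32) and the activated ones from 5.75 to 10.8 CPM (median 7.44), with a log2 difference of -0.63 ± 0.50 (adjusted p = 0.291). Resting mtDNANZB replicate 6 decided the sign there: without it the difference was 0.54 (adjusted p = 0.257). The 12 resting libraries differed in granulocyte markers as well, whose sum was 20322 CPM in mtDNANZB replicate 6 and 406 to 2422 CPM in the other 5, and ranged from 644 to 7434 CPM in mtDNAB6. In mtDNAB6 replicates 1 to 6 the granulocyte sums were 4986, 644, 960, 1009, 6259 and 7434 CPM. Asns was at 25.7, 6.62, 14.2, 29.4, 41.3 and 21.4 CPM in the same order. In mtDNANZB replicate 6 had both the highest sum and the highest Asns value, 40.6 CPM. The part of granulocyte markers in the Asns difference was not tested.

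Of the amino acid synthesis genes that ATF4 is known to induce, 10 of 13 were tested, 6 rose and 2 fell in each haplotype. Beside these counts, 22.4% of all genes rose and 24.5% fell in mtDNAB6, and 25.2% rose and 28.4% fell in mtDNANZB. Psat1 and Phgdh, enzymes of serine synthesis, rose by 1.67 ± 0.17 and 1.22 ± 0.16 on the log2 scale in mtDNAB6 (adjusted p = 2.6e-08 and 6.2e-07) and by 1.70 ± 0.18 and 1.54 ± 0.17 in mtDNANZB (adjusted p = 4.2e-08 and 3.7e-08). Pycr1, of proline synthesis, fell (log2 differences of -0.95 and -1.498). Asns was the other gene that fell in mtDNAB6 and Got1, an aspartate aminotransferase, in mtDNANZB, with a log2 difference of -1.04 although its medians were 48.1 CPM at rest and 54.2 CPM after activation, since 2 resting libraries stood far above the rest. Asns therefore moved against the serine synthesis genes of its own list in mtDNAB6.

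Chac1 (chr2:119180757-119184866, plus strand), which degrades glutathione, had few counts. It ranged from 1.99 to 9.78 CPM at rest (median 2.74) and from 0.92 to 2.801 CPM after activation (median 1.28) in mtDNAB6. The groups overlapped and the log2 difference of -1.43 ± 0.67 did not pass the test (adjusted p = 0.0833), but did without resting mtDNANZB replicate 6 (adjusted p = 0.0242), which enters the shared estimate of spread. In mtDNANZB it ranged from 0 to 51.0 CPM at rest (median 6.88) and from 0 to 1.91 CPM after activation (median 1.14), at most 13 UMIs in any activated library. The log2 difference was -3.71 ± 0.71 (adjusted p = 0.0001). It was -2.54 (adjusted p = 0.00081) without resting replicate 6 and -2.11 (adjusted p = 0.0067) without replicates 5 and 6.

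The feedback genes held both the largest fall and the only rise. Ppp1r15a (GADD34; chr7:45172340-45175692, minus strand) ranged from 1189 to 2259 CPM at rest (median 1369) and from 23.1 to 43.2 CPM after activation (median 27.1) in mtDNAB6. In mtDNANZB the ranges were 475 to 2052 CPM (median 1160) and 17.6 to 39.7 CPM (median 27.8). No activated library came near a resting one. The log2 differences were -5.77 ± 0.33 (adjusted p = 8.3e-13) and -5.37 ± 0.33 (adjusted p = 2.8e-12), falls of 54.7-fold and 41.4-fold, which ranked 64 and 58 from the most negative of 10566 genes. The overlapping gene Tulp2 on the other strand had 40 UMIs in all libraries. Ppp1r15a is also known to be induced early after cell handling, and the summed handling genes moved with it, as given above.

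Trib3 (chr2:152179337-152191958, minus strand), a pseudokinase that restrains ATF4 and CHOP, was the member that rose. In mtDNAB6 it ranged from 5.32 to 11.2 CPM at rest (median 6.52) and from 10.2 to 21.4 CPM after activation (median 18.3). In mtDNANZB the ranges were 0 to 20.1 CPM (median 8.71) and 12.2 to 30.2 CPM (median 24.01). The ranges overlapped by the highest resting and the lowest activated libraries. The log2 differences were 1.22 ± 0.27 (adjusted p = 0.00057) and 0.92 ± 0.28 (adjusted p = 0.0065), rises of 2.33-fold and 1.898-fold, while Atf4 and Ddit3 fell.

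Sesn2 (chr4:132219335-132237815, minus strand), a leucine sensor that restrains mTORC1, ranged from 12.5 to 21.1 CPM at rest and from 18.2 to 26.4 CPM after activation in mtDNAB6, with a log2 difference of 0.34 ± 0.42 (adjusted p = 0.526). In mtDNANZB it ranged from 0 to 121.0 CPM at rest (median 16.4) and from 13.5 to 33.1 CPM after activation (median 22.2). The log2 difference of -1.24 ± 0.43 passed the test (adjusted p = 0.0171) although the activated median was the higher one. This call rested on resting replicates 5 and 6, at 121.0 and 89.5 CPM against 0 to 18.5 CPM in the other 4: the difference was -0.64 (adjusted p = 0.172) without replicate 5, -0.93 (adjusted p = 0.0744) without replicate 6, and 0.54 (adjusted p = 0.0592) without both.

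Libraries fell into 3 sets by reads per UMI, of 1.88 to 1.958, 2.11 to 2.24 and 2.68 to 2.796, with 8 libraries each, and resting and activated libraries were unevenly spread over them. Within mtDNAB6 only the middle set held both states, with 4 resting and 1 activated library. In it Atf4 had a mean of 1078 CPM at rest and 331 CPM after activation, Ddit3 of 115 and 30.7 CPM, Ppp1r15a of 1784 and 43.2 CPM and Trib3 of 8.24 and 14.8 CPM. Within mtDNANZB each set held both states. There Atf4, Ddit3 and Ppp1r15a were lower in every activated library than in every resting library of the same set. Trib3 was higher in every activated library than in every resting library of its set other than the shallow replicate 2, which had 0 UMIs of it. For Atf4 the set means fell from 1235 to 295 CPM, from 1318 to 288 CPM and from 1035 to 273 CPM. The mean of 1035 CPM includes the shallow replicate 2, and without it was 1210 CPM. With the set as a term in the fit, Atf4, Ddit3, Ppp1r15a and Trib3 kept their calls in both haplotypes. Asns then lost its call in mtDNAB6 (adjusted p = 0.0649) and Sesn2 its call in mtDNANZB (-0.62, adjusted p = 0.220).

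The wider pathway was described by lists of genes chosen for their function. The shares over all genes to set beside their counts were 22.4% higher and 24.5% lower in mtDNAB6. In mtDNANZB these shares were 25.2% and 28.4%. Of 14 tested genes in the list of eIF2, its exchange factor eIF2B and its phosphatase, 8 rose and 1 fell in mtDNAB6. In mtDNANZB 6 rose and 4 fell. The list also held Eif2d, which rose in both haplotypes, and Eif2a, which fell in mtDNANZB, and neither is a subunit of these complexes. Eif2s1, the gene of the alpha subunit of eIF2, was not among the 14. Eif2b5 (the catalytic subunit of eIF2B) rose by 0.54 on the log2 scale in mtDNAB6 (adjusted p = 0.00024), and Ppp1ca (a catalytic subunit of the phosphatase) by 0.92 in mtDNANZB (adjusted p = 1.6e-07). The genes of the phosphatase moved both ways. Beside Ppp1r15a, the targeting subunit gene Ppp1r15b (-0.59, adjusted p = 0.0026) and the catalytic Ppp1cb (-0.79, adjusted p = 0.0084) fell in mtDNANZB. In mtDNAB6 neither of them passed the test (adjusted p = 0.308 and 0.751). Of 7 relay genes of GCN2 and HRI, 1 rose and 2 fell in each haplotype, the member Eif2ak4 among those that fell. Impact, an inhibitor of GCN2, fell, with log2 differences of -2.13 ± 0.33 and -2.43 ± 0.36 (adjusted p = 1.0e-05 and 3.3e-06), beside the fall of Eif2ak4.

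Of 12 tested tRNA synthetase genes and related targets, 3 rose and 0 fell in mtDNAB6 and 5 rose and 0 fell in mtDNANZB. Over all genes 22.4% rose and 24.5% fell in mtDNAB6, and 25.2% rose and 28.4% fell in mtDNANZB. Wars1, for tryptophan, rose by 1.68 ± 0.13 and 2.10 ± 0.14 on the log2 scale (adjusted p = 1.4e-10 and 1.2e-11). It is also known as an interferon-induced gene. Of 7 tested amino acid transporters, 0 rose and 3 fell in each haplotype. Slc38a2, a transporter of neutral amino acids, fell, with log2 differences of -1.32 ± 0.24 and -2.19 ± 0.25 (adjusted p = 8.6e-05 and 1.1e-07), as did Slc6a9, for glycine, at -2.28 and -2.10. Of 13 tested stress and feedback targets, the 5 members Trib3, Chac1, Sesn2, Ddit3 and Ppp1r15a included, 2 rose and 7 fell in mtDNAB6 and 1 rose and 9 fell in mtDNANZB. Gdf15, a secreted stress signal, differed by -4.23 ± 0.43 in mtDNAB6, and Cdkn1a, the cell cycle inhibitor p21, rose by 1.54 ± 0.40 (adjusted p = 0.0026). Leaving out resting mtDNANZB replicates 5 and 6, a choice made after seeing the data, moved most of these counts together with the shares over all genes, which became 27.3% higher and 25.9% lower in mtDNAB6 and 26.7% higher and 23.3% lower in mtDNANZB. The tRNA list then had 6 that rose in mtDNAB6 and 7 in mtDNANZB, the stress and feedback list 3 that rose in each, the eIF2 list 9 that rose in mtDNAB6 and 8 that rose and 2 that fell in mtDNANZB, and the transporters 1 that rose in each and 2 that fell in mtDNANZB. Of the 15 handling genes 13 then fell in mtDNANZB. In the 21 libraries the tRNA list had 6 that rose in each haplotype.

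Genes of the other arms of the unfolded protein response moved both ways. Of 17 ATF6 and XBP1 target genes 5 rose and 5 fell in mtDNAB6, where 22.4% of all genes rose and 24.5% fell, and 5 rose and 4 fell in mtDNANZB, where 25.2% rose and 28.4% fell. The list medians were 0.20 and 0.06 on the log2 scale. Dnajb9, a chaperone of the endoplasmic reticulum, fell, with log2 differences of -3.17 ± 0.20 and -3.75 ± 0.21 (adjusted p = 3.9e-12 and 9.5e-13), while Hsp90b1 (GRP94) rose by 0.57 and 0.60.

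**Figure D3:**
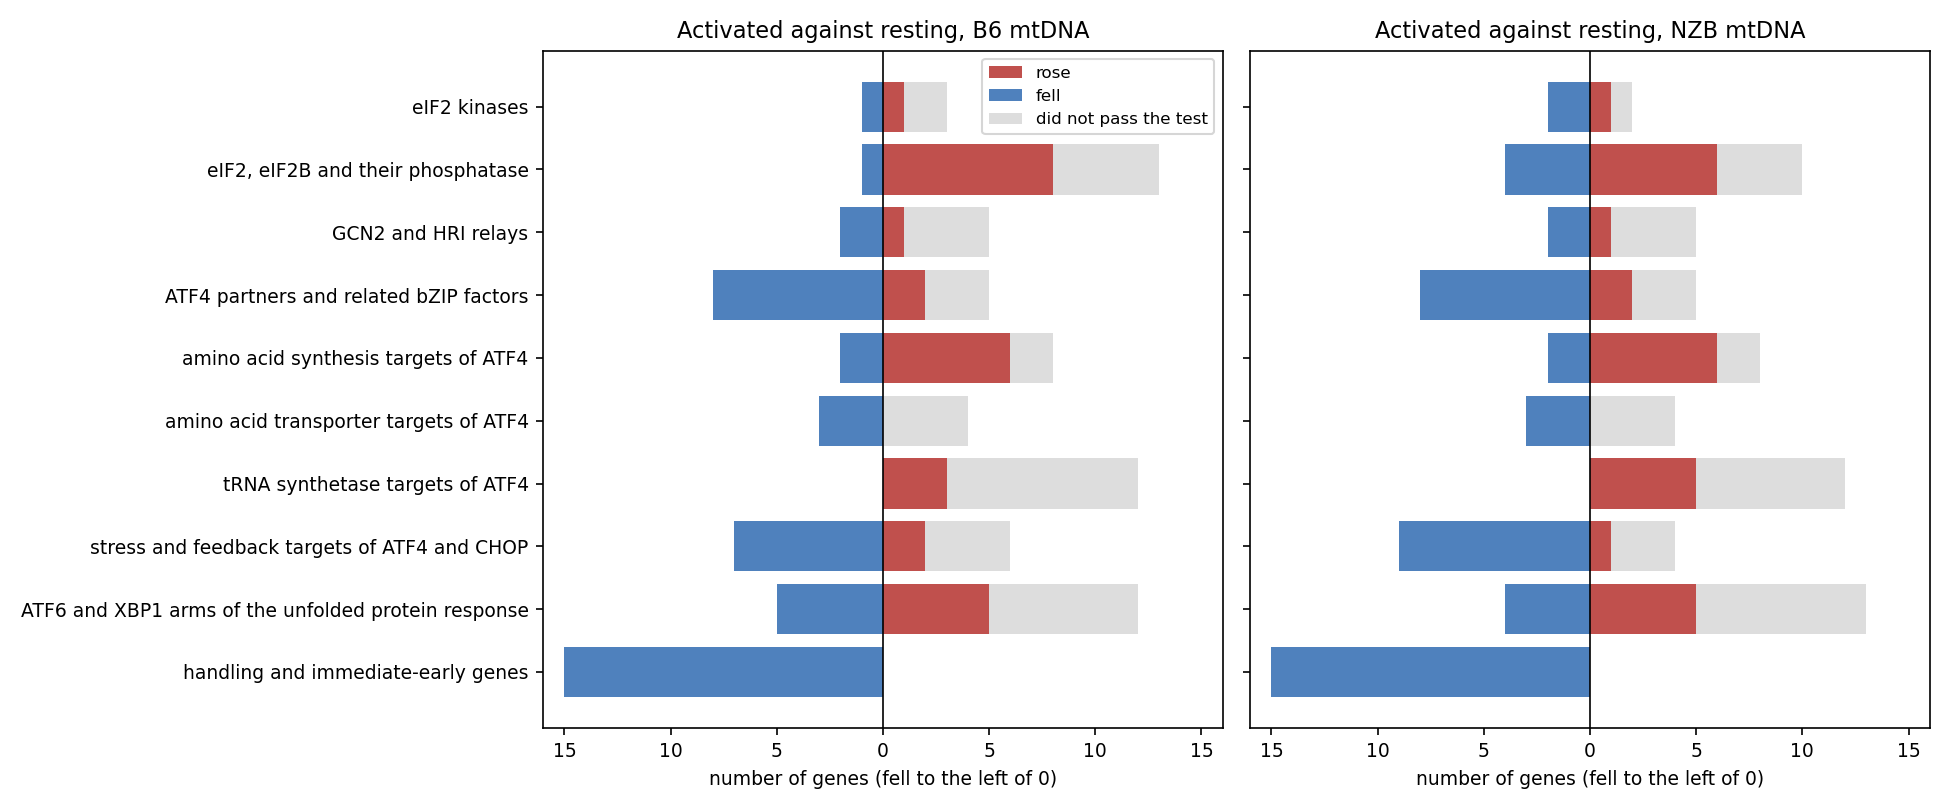
Number of genes (x axis) of each functional list (y axis) that rose (right of 0), fell (left of 0) or did not pass the test (grey) on activation, in mtDNAB6 and mtDNANZB. All 15 handling genes fell, 8 of 13 bZIP factors fell, and the amino acid synthesis list has 6 genes that rose and 2 that fell in each haplotype.

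The second question was whether the mitochondrial haplotype sets the level of these genes. In resting cells 1 of 10 members passed the test, against 2.76% of all genes, and it was higher in mtDNANZB (1.9% of all genes, or 201, were higher and 0.861%, or 91, lower). This balance over all genes turned with the libraries used: 242 were higher and 420 lower in 21 libraries, and 7 were higher and 116 lower without mtDNANZB replicates 5 and 6, where the member called was Asns, lower in mtDNANZB (-2.12, adjusted p = 0.0132). With any one resting library left out the genes called ran from 0 to 5.48%, with 0 called without mtDNANZB replicate 5 or mtDNAB6 replicate 4. At an unadjusted p under 0.05 there were 5 members, against 20.8% of all genes. Eif2ak3 was 1.29 ± 0.30 higher on the log2 scale (adjusted p = 0.0307). All resting mtDNANZB libraries but the shallow replicate 2 lay above all mtDNAB6 libraries, at 33.6, 39.1, 43.1, 92.3 and 119.6 CPM against 19.6 to 31.97 CPM. The call was lost without mtDNANZB replicate 5 (0.96, adjusted p = 0.164) and without any one of mtDNAB6 replicates 1, 3, 4 and 5 (adjusted p from 0.0618 to 0.0793). Without replicates 5 and 6 of mtDNANZB it was 0.52 (adjusted p = 0.336). Within the middle set by reads per UMI the only mtDNANZB library was at 39.1 CPM and the 4 mtDNAB6 libraries had a mean of 22.8 CPM, within the highest set the means were 85.0 CPM (n = 3, the shallow replicate 2 left out) and 31.1 CPM (n = 2) without overlap, and with the set as a term the adjusted p was 0.116.

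Sesn2 was 1.49 ± 0.42 higher in resting mtDNANZB on the log2 scale and Chac1 1.75 ± 0.58 higher, which did not pass the test (adjusted p = 0.0538 and 0.0857). For Sesn2 the difference was -0.27 (adjusted p = 0.688) without replicates 5 and 6, and 1.52 to 1.74 (adjusted p from 0.0157 to 0.0488) when any one of replicates 1 to 4 was left out. For Chac1 the call was gained without replicate 1 (2.03, adjusted p = 0.0276) or 3 (1.99, adjusted p = 0.0431), and the difference was 0.58 (adjusted p = 0.55) without replicate 6. Trib3 differed by 0.69 (95% interval 0.13 to 1.25, adjusted p = 0.167) and Ddit3 by 0.36 (95% interval 0.069 to 0.65, adjusted p = 0.162), and Ddit3 passed without mtDNANZB replicate 6 (0.47, adjusted p = 0.0443). The log2 difference of Asns was -0.94 ± 0.46 (adjusted p = 0.249), and without mtDNANZB replicate 6 it was -2.11 (adjusted p = 0.0027). Atf4 differed by 0.071 (95% interval -0.21 to 0.35) and Ppp1r15a by -0.42 (95% interval -0.94 to 0.11).

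Replicates 5 and 6 of resting mtDNANZB were the 2 highest of 11 resting libraries, the shallow one left out, in 4 of the 10 members: Eif2ak3, Sesn2, Chac1 and Trib3. They were the 2 highest in 18.0% and the 2 lowest in 17.1% of all 10566 genes, so these libraries stood apart over much of the transcriptome. In 2 of the 10 members they were the 2 lowest. They were the 2 highest in 4 of 7 amino acid transporters (Slc38a2, Slc3a2, Slc7a1 and Slc7a5), in 7 of 17 genes of the ATF6 and XBP1 arms and in 0 of 15 handling genes, of which 8 were lowest in them. The same held for 6 of 13 stress and feedback targets, 1 of 4 kinases, 3 of 14 eIF2 list genes and 2 of 7 relays. For bZIP factors it was 2 of 13, for amino acid synthesis 2 of 10 and for the tRNA list 3 of 12. These counts were made after the values were seen and carry no test. The 6 list genes called between the resting groups, also named after their values were seen, held Eif2ak3 and 3 others with this pattern: Got1, Slc38a2 and Nfe2l1. Got1 was at 219 and 215 CPM in replicates 5 and 6 against 23.6 to 50.8 CPM in the other 10 resting libraries, and Slc38a2 at 1318 and 660 CPM against 254 to 436 CPM. Without these replicates Got1 differed by 0.14 (adjusted p = 0.778) and Slc38a2 by 0.18 (adjusted p = 0.587) on the log2 scale. The other calls were Eif2ak2 and Gdf15, lower in mtDNANZB, with log2 differences of -0.70 ± 0.19 (adjusted p = 0.0444) and -1.29 ± 0.35 (adjusted p = 0.043). Without replicates 5 and 6 neither passed (adjusted p = 0.0975 and 0.175), and in 21 libraries Eif2ak2 did (adjusted p = 0.0256) and Gdf15 did not (adjusted p = 0.0536). Granulocyte markers were high in replicate 6 but at 406 CPM in replicate 5, the lowest of the group.

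**Figure D4:**
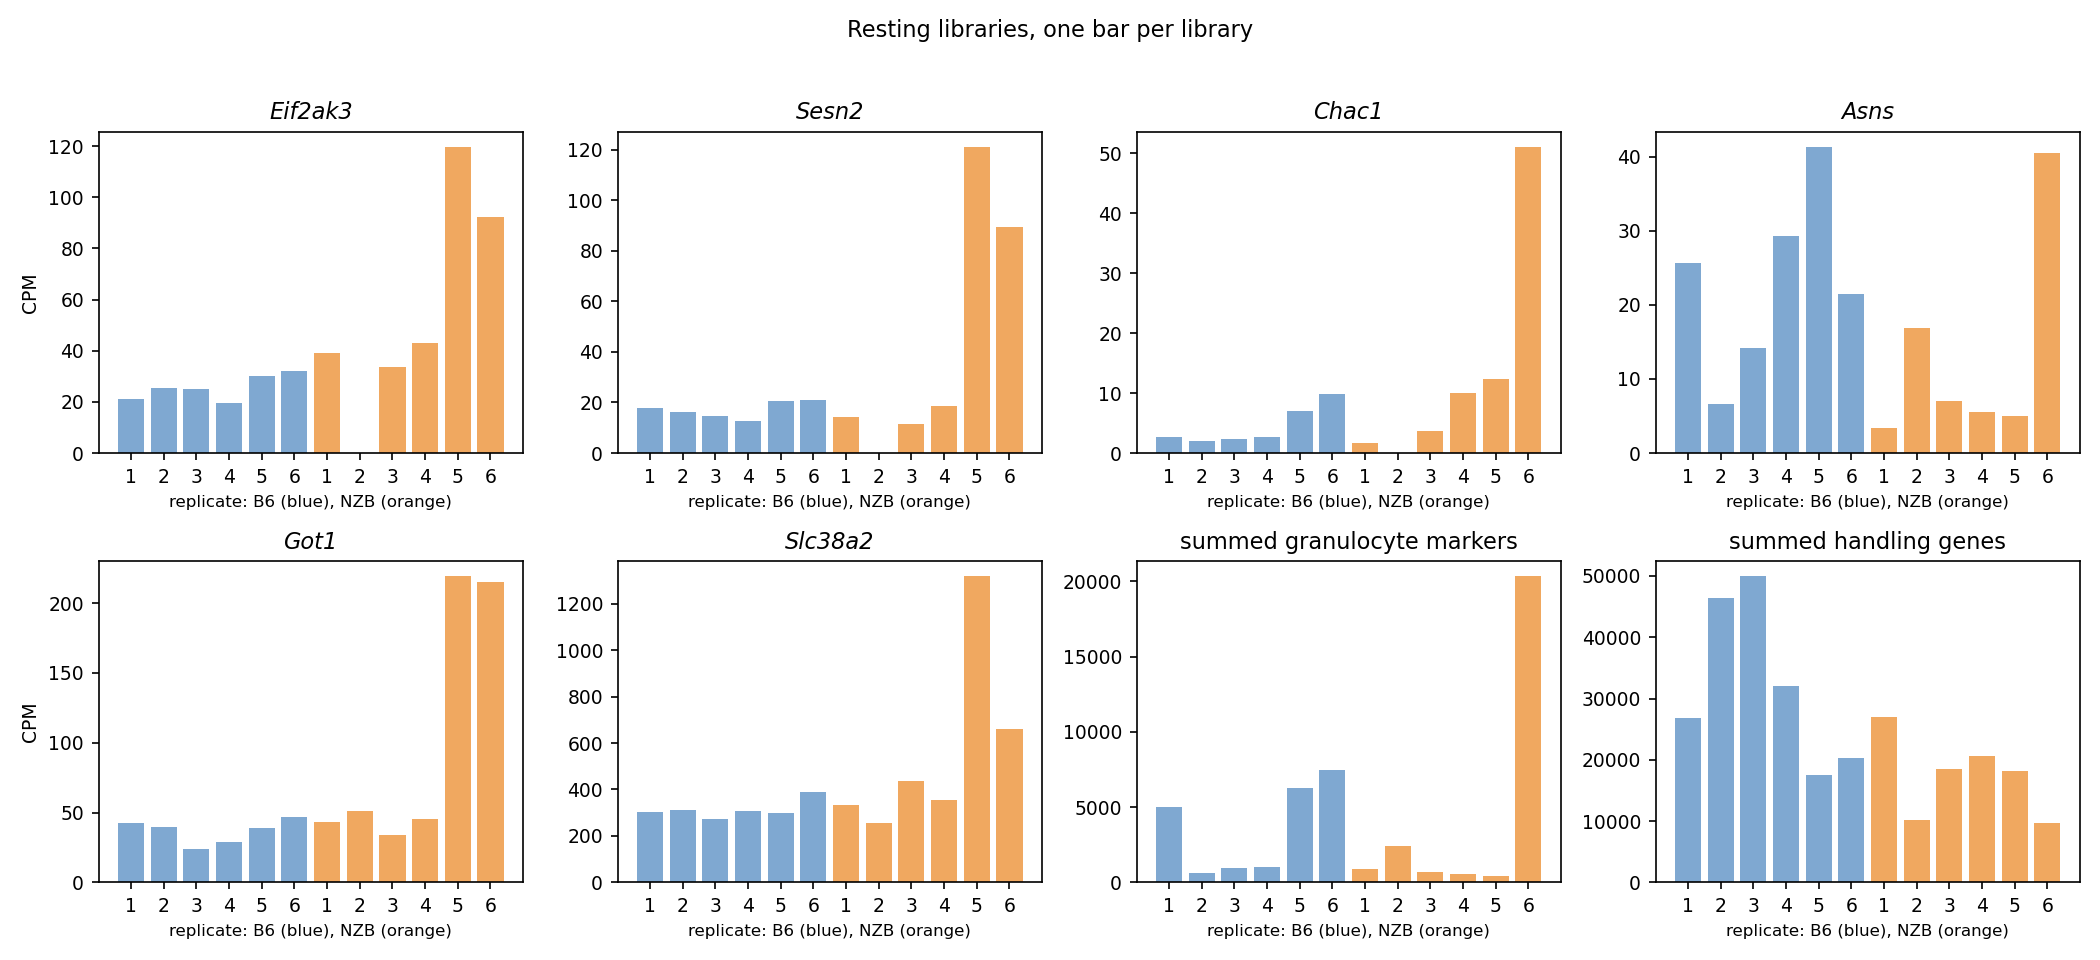
Levels (CPM, linear axis from 0) of 4 members, of Got1 and Slc38a2, and of the summed granulocyte markers and handling genes, with one bar for each resting library, mtDNAB6 in blue and mtDNANZB in orange. Eif2ak3, Sesn2, Got1 and Slc38a2 are high in mtDNANZB replicates 5 and 6, while the granulocyte sum is high in replicate 6 and low in replicate 5, and Asns is high in replicate 6 alone of the pair.

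In activated cells 0 of 10 members and 0 of 10566 genes differed between the haplotypes (edgeR), with 327 genes (3.09%) and 0 members at an unadjusted p under 0.05, and 0 members by DESeq2. The log2 differences ranged from -0.53 for Chac1 (95% interval -2.15 to 1.08) to 0.39 for Trib3 (95% interval -0.10 to 0.89). The interval of Atf4 was -0.31 to 0.25 and that of Ddit3 -0.23 to 0.39, so that differences beyond 0.39 on the log2 scale in these 2 genes lay outside the intervals, whereas for Chac1 much larger ones lay inside.

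**Figure D5:**
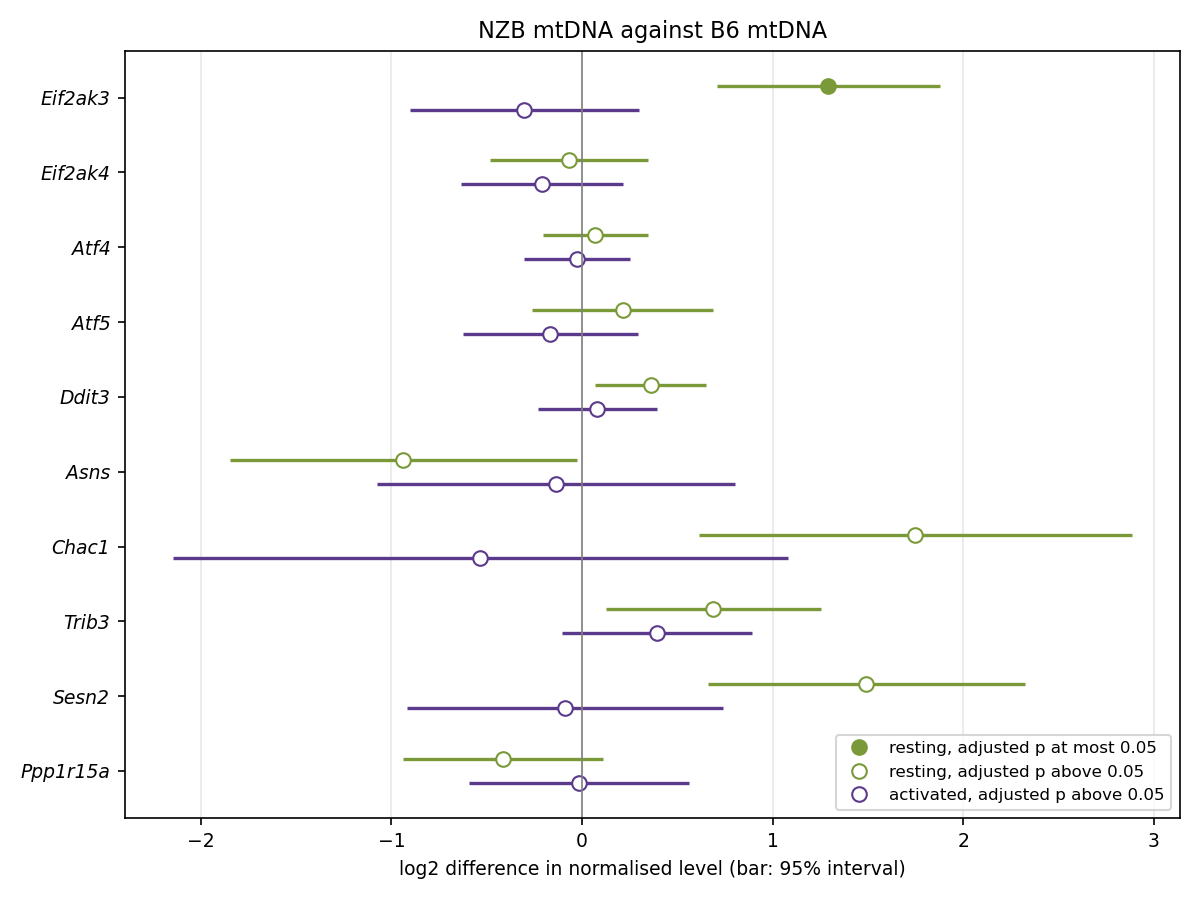
Log2 difference of mtDNANZB against mtDNAB6 (x axis) for each member (y axis) in resting and activated cells, with the 95% interval as a bar and a filled point where the adjusted p was at most 0.05. The only filled point is Eif2ak3 in resting cells, at 1.29, and the activated points lie between -0.53 and 0.39.

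Whether the haplotypes differed in their answer to activation was tested as an interaction. No member and none of the 10566 genes passed (edgeR, 0 calls, with 1512 genes or 14.3% and 3 members at an unadjusted p under 0.05, and 0 members and 1 gene by DESeq2). The 0 over all genes depended on the libraries: in 21 libraries 95 genes were higher and 18 lower, 1.04% of those tested, with 0 members among them. The 3 members were Eif2ak3 (-1.60 ± 0.43, adjusted p = 0.207), Sesn2 (-1.58 ± 0.60, adjusted p = 0.244) and Chac1 (-2.28 ± 1.01, adjusted p = 0.312), each with a more negative answer in mtDNANZB. For Sesn2 the interaction was 0.16 without resting mtDNANZB replicates 5 and 6, and for Eif2ak3 it was -0.83 (adjusted p = 0.345). That Eif2ak3, Chac1 and Sesn2 passed the activation test in mtDNANZB and not in mtDNAB6 is therefore not shown to be a difference between haplotypes, nor is the opposite case of Asns (0.80 ± 0.67, adjusted p = 0.612).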

How the data were processed

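Bulk MARS-seq libraries, which tag the 3′ end of polyadenylated RNA with unique molecular identifiers (UMIs), were made from 24 samples. Per the methods and labels the authors trimmed reads with cutadapt, aligned them with STAR to 3′ regions of GRCm39, counted them with HTSeq, removed UMI duplicates and corrected for saturation, and deposited whole-number counts per gene, with a second table of counts before the UMI step. 1 column of that second table matched no sample and was left out. The labels and the methods differ in the RNA input and kit.

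Groups came from the labels. Counts were scaled by TMM and tested with the edgeR (version 4.0.16) quasi-likelihood test in 1 fit over all 24 libraries and 4 groups, after filterByExpr, with Benjamini-Hochberg adjustment over 10566 genes and a threshold of 0.05. SE is the log2 difference over the square root of F, and 95% intervals are 1.96 SE wide on each side. On simulated counts for the mtDNAB6 activation contrast 99 of 99 genes changed by 2 on the log2 scale and 56 of 100 changed by 1 were called, over 10458 genes. Of the genes left unchanged 11 were called. The simulation gave every gene the same dispersion, changed only genes above a minimum count and had no library that stood apart other than in depth. These shares need not hold for genes with few counts or with outlying libraries, such as Chac1. Replicate libraries differed by more than sampling noise (chi-square over its degrees of freedom of at least 2.77). Reads from overlapping genes cannot be told apart where counting ignored strand, which is not given in the sources used here. What the sample numbers mark is not given in the sources used here. For each library the deviations of its genes from the mean of its group were taken on the log2 CPM scale. Between same-numbered resting and activated libraries these deviations correlated at -0.16 to 0.25 by label number. The correlation was not above 0.1 in every pair, so the block was kept as an alternative.

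The members and lists were chosen with earlier results of these data known. All 10 members are named. In each list the called genes with the 2 largest rises and 2 largest falls per haplotype could be named, and marker lists are given by their sums. Ppp1r15b and Ppp1cb were named beyond this rule, as phosphatase genes that fell. Alternatives were median-of-ratios scaling, no filter or a stricter one on low counts, DESeq2, the second table, 21 libraries (without resting mtDNANZB replicates 2 and 6 and activated mtDNANZB replicate 6), the 12 libraries of a contrast alone, replicate blocks, the set by reads per UMI as a term, and each library left out. Fits on 21 libraries with the set, and on 22 libraries (without resting mtDNANZB replicates 5 and 6), were chosen after seeing the data. Promoter sequences are from RefSeq, and all 10 members had a window.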

Additional observations from a re-analysis of the deposited data

Results flagged for a closer look

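Of 40 sets of 6 values tested for a value far from the others (10 members in 4 groups), 2 were flagged, and chance flags about 1 in 20. Both were in resting mtDNANZB replicate 6: Asns at 40.6 CPM, where the next library was at 16.9 CPM, and Chac1 at 51.0 CPM, where the next was at 12.4 CPM. The 16.9 CPM of Asns was 1 UMI in the shallow replicate 2, and the library after it, replicate 3, was at 7.05 CPM. The same library had summed granulocyte markers of 20322 CPM and erythroid markers of 3817 CPM, the highest of its group in both, and their part in these values was not tested.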

How the results depend on the processing

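Of 50 member values (10 genes in 5 contrasts), 32 kept their sign in every alternative and 18 changed it in at least one. Atf4, Ddit3, Ppp1r15a and Trib3 kept sign and call in both activation contrasts under all 36 alternatives. The number of members called on activation ranged from 5 to 7 in mtDNAB6 and from 6 to 8 in mtDNANZB. The share of all genes called ranged from 19.2% to 56.9% and from 21.7% to 57.1%. The number called between resting haplotypes was 1 (2.76% of all genes). It became 2 without a filter on low counts (0.859%), 2 with a stricter one (4.13%) and 0 in the second table (0.358%). In 21 libraries it was 3 (6.11%) and in the 12 libraries alone 0, where 0 of 9907 genes passed. With the set by reads per UMI it was 0 (0.00946%), and 2 in 21 libraries with the set (3.21%). When 1 library was left out it was 0 to 3 (0% to 5.48%). Differences changed sign for Eif2ak3 on activation in mtDNAB6 with the set (0.098) and in 21 libraries with the set (0.23). On activation in mtDNANZB, Atf5 became 0.067 in 21 libraries, 0.082 with the set as well and 0.048 in 22 libraries, and ranged from -0.32 to 0.095 (without resting replicate 6) when 1 library was left out, Asns became 0.59, 0.69 and 0.56 and ranged from -0.88 to 0.54 in the same order, and Sesn2 0.54 in 22 libraries. Between resting haplotypes Sesn2 became -0.27 in 22 libraries and Ppp1r15a 0.13 in 21 libraries with the set, and the Sesn2 interaction became 0.16 in 22 libraries. The call of Sesn2 on activation in mtDNANZB was also lost in the second table (adjusted p = 0.0988). The same held in the 12 libraries alone (adjusted p = 0.0772) and in 21 libraries (adjusted p = 0.123). The causes were not tested.

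Whether the numbers pair the samples is not settled by the sources used here, since the cells of a haplotype were divided into resting and activated ones but no source ties a number to a mouse. By label number the correlation of the deviations from the group mean was above 0.1 in 3 of 5 pairs in mtDNAB6 and 0 of 4 in mtDNANZB. In these deviations 2 of the 5 and 0 of the 4 resting libraries correlated best with the activated one of their own number. With a replicate block by label number 6 members were called on activation in mtDNAB6 (40.6% of all genes) and 7 in mtDNANZB (39.1%). By title number it was 7 and 7 (45.2% and 51.1%), with 0 between resting haplotypes (0.681%). Sesn2 in mtDNANZB (adjusted p = 0.555 by label number) and Eif2ak4 in mtDNAB6 (adjusted p = 0.0992) lost their calls under the block, and Chac1 in mtDNAB6 gained one (adjusted p = 0.0245). Depth limits Chac1 most, and levels under 50.2 CPM cannot be read in resting mtDNANZB replicate 2.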
